A study of Homo sapiens with 9 samples.

Results

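The genes described here are interferon-stimulated genes in ES-2, an established human ovarian cancer cell line. They were chosen by name, as the rows found for a list of 35 genes that interferon is known to induce. Of these, 33 were found among the 32997 genes of the expression table, and RSAD2 and CMPK2 were not analysed here. RNA sequencing covered 9 libraries in 3 groups of 3. The first group carried an empty vector, the second overexpressed OTUB2, a deubiquitinating enzyme, and the third overexpressed SNX29P2, whose name marks it as a pseudogene of the sorting nexin SNX29. All cells were the same line, grown in RPMI medium with serum and given no further treatment. The labels give neither the promoter of the constructs nor whether a group was a pool or a clone. Whether the 3 libraries of a group stem from different cultures is not stated either. The p-values below therefore describe the variation among these samples, and that variation may be purely technical. The question asked of these genes was whether either construct was accompanied by an interferon response beyond that of vector cells. No library came from cells without a vector or construct. A response to carrying one, if shared by all groups, would not be seen in these comparisons.

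In the type I interferon pathway, sensors of foreign RNA or DNA switch on interferon genes, and secreted interferon binds the receptor pair IFNAR1 and IFNAR2. The receptor kinases JAK1 and TYK2 then activate transcription factors, among them STAT2, which joins IRF9 in a complex that binds an interferon-stimulated response element in the promoters of target genes. The targets include antiviral effectors, the ubiquitin-like protein ISG15 with its conjugating enzymes, and the pathway's own sensors and transcription factors. Introduced nucleic acid can itself set off this pathway, so the targets are commonly examined in cells that carry a construct.

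The promoter element named above is shown first, as a match to it was found in many, though not all, of these genes. The genes were named because interferon induces them, so the element is not independent of that choice. A repeat of the core of that element, GAAANNGAAA on either strand, was searched in RefSeq promoter windows (GRCh38.p14) reaching from 250 bases before to 50 bases after a gene's start. Of the 35 named genes, 28 had a promoter entry and 20 of these, or 71.4%, held at least 1 match. Over all 27305 genes with an entry the share was 4.38%, and over all 35116 windows of that length it was 3.57%. A match is a description of letters and not a site of binding. The 8 windows below were taken from strongly and weakly expressed members. Each is 30 bases long and written on the strand of the gene, with the motif in capitals. In IFI44, IFIT3 and IFIT1 the match lies on the other strand and reads as its reverse complement. In ISG15 and BST2 a pair of matches overlap and are capitalised as 1 run. A further match in IFIT1 lies only partly inside its printed window, and that part is left in lower case.
IFI44, chr1:78649759-78649788, plus strand: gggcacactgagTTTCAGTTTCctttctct
SAMD9, chr7:93118096-93118125, minus strand: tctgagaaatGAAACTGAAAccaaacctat
IFIT3, chr10:89327865-89327894, plus strand: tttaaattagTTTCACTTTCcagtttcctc
ISG15, chr1:1013377-1013406, plus strand: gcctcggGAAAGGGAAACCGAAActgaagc
IFI6, chr1:27672266-27672295, minus strand: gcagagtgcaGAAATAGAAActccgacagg
IFIT1, chr10:89392510-89392539, plus strand: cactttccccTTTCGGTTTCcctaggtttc
BST2, chr19:17405738-17405767, minus strand: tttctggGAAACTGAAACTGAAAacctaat
IFI44L, chr1:78620365-78620394, plus strand: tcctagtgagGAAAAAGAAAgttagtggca

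IFI44 has a pair of annotated starts, and its match lies 9 to 18 bases before one and 51 to 60 bases before the other. The match in SAMD9 lies 127 to 136 bases before it. The motif was found in 11 of the 15 tested genes with an entry and in 8 of the 11 genes with an entry that were too weakly expressed to be tested. IFI44 and its neighbour IFI44L both hold a match, although IFI44 was the most strongly expressed member and IFI44L was close to 0 in every library.

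Libraries held 38504854 to 48551215 reads in genes. OTUB2 was at 1.04 to 1.58 RPKM (a read count divided by gene length in kilobases and scaled to 1000000 reads) in the 6 libraries without its construct and at 37.6, 42.6 and 38.4 RPKM in its own group. SNX29P2 was at 0 to 0.0665 RPKM in the other groups and at 41.0, 55.1 and 47.6 RPKM in its own. Both targeted genes therefore matched the labels in all 9 libraries. The keratins KRT7, KRT8 and KRT18 were expressed in every library, from 25.7 to 147 RPKM. Of the ovarian and epithelial markers, EPCAM was close to 0 in every library, WT1 lay at 0.524 to 1.37 RPKM and PAX8 at 0.149 to 0.421 RPKM. Of the endothelial markers, the cadherin CDH5 was at 17.6 to 23.6 RPKM, while PECAM1 was at 0 to 0.125 RPKM and VWF at 0 to 0.00408 RPKM.

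The library OTUB2 replicate 1 stood apart by reads from blood cell genes. Summed over the leukocyte markers other than CD68, it had 9.41 RPKM (716 reads), against 0.621 to 1.09 RPKM (34 to 67 reads) in the other 8 libraries. All 11 of the 11 matched markers had reads there, and 10 were higher than in any other library. The leukocyte phosphatase PTPRC had 118 reads there and 0 to 2 elsewhere, and CD3E, TYROBP and NKG7 had 34, 37 and 36 reads there and 0 in each other library. The alpha globin HBA2, chosen after its values were seen, had 34576 reads in this library (952 RPKM) and 0 to 70 elsewhere, although its reads cannot be fully separated from those of the near-identical HBA1. CD68, a marker that was at 28.6 to 35.3 RPKM in every library, did not set it apart. Leukocytes express many of the genes described below. The main results of the OTUB2 group are therefore given with and without it. In bulk RNA, fewer cells expressing a gene and less RNA per cell cannot be told apart.

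As a group, the interferon-stimulated genes were weakly expressed in vector cells. By their mean in the vector group, 5 of the 33 were above 5 RPKM, 8 were at 1 to 5 RPKM and 20 were below 1 RPKM. 7 were under 0.1 RPKM in every library, and 7 of those too weak to test had at least 1 library without reads. The test took genes reaching 0.5 RPKM in 3 or more libraries, which 16 of the 33 met (48.5%, against 50.1% of all genes). Among tested genes the median vector level was 1.8 RPKM for these 16 and 5.0 RPKM for all.

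**Figure D1:**
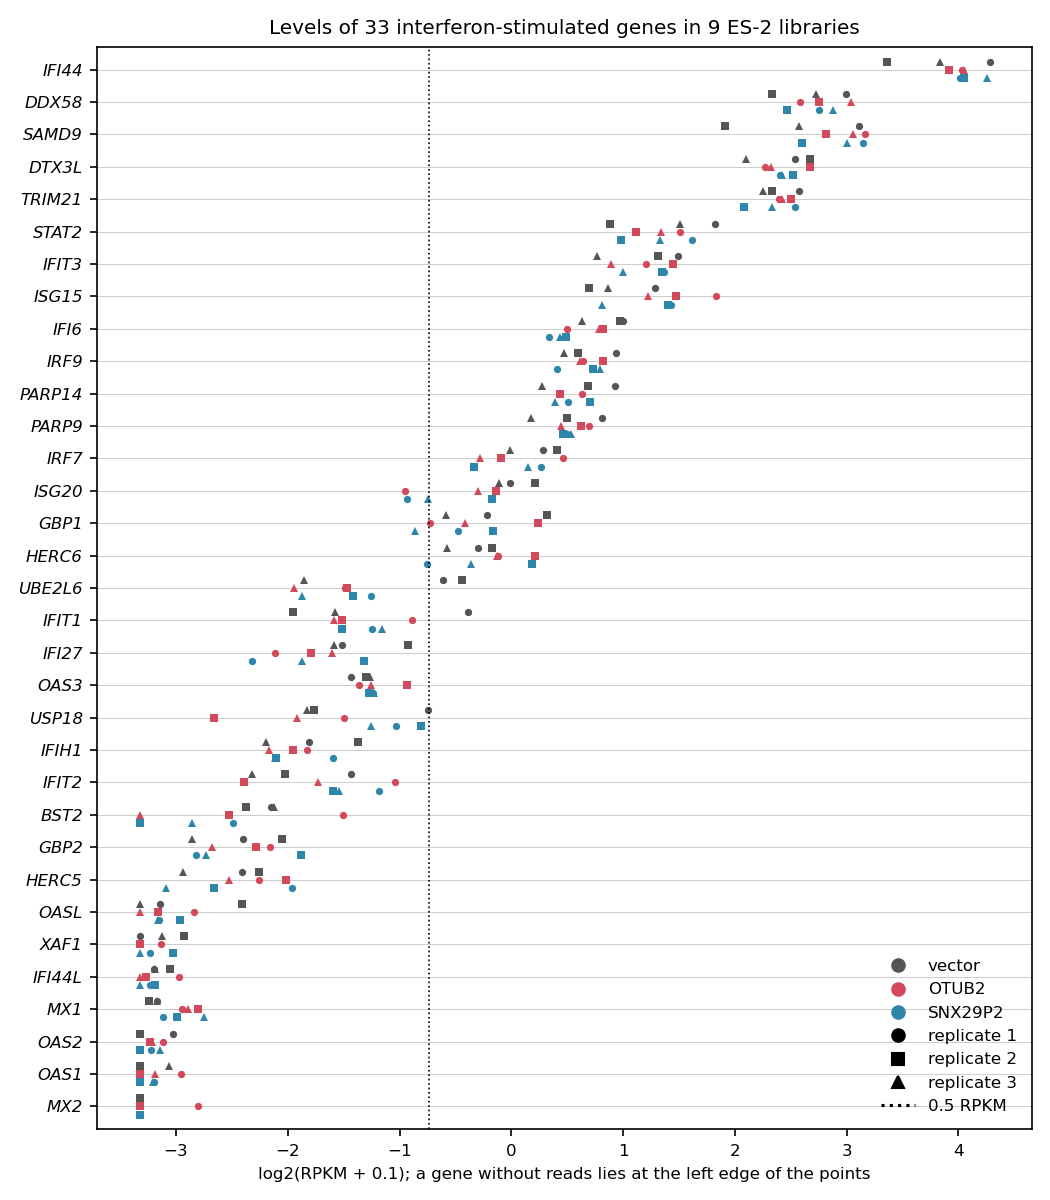
Level of each of the 33 interferon-stimulated genes in the 9 libraries, as log2(RPKM + 0.1) on the horizontal axis, with 1 point per library, coloured by group and shaped by replicate number; the dotted line marks 0.5 RPKM. The 5 highest genes are IFI44, DDX58, SAMD9, DTX3L and TRIM21, and the points of the 3 groups overlap for most genes.

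Among the sensors, DDX58 (RIG-I, which detects viral RNA in the cytosol; chr9:32455705-32526324) was well expressed. Its levels were 7.86, 4.93 and 6.50 RPKM in vector, 5.88, 6.66 and 8.13 RPKM with OTUB2, and 6.63, 5.41 and 7.24 RPKM with SNX29P2. The 3 groups overlapped, and the group means lay between 6.43 and 6.89 RPKM. IFIH1 (MDA5), the sensor of long double-stranded RNA, stayed at 0.118 to 0.287 RPKM over all libraries and was too weak to test.

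The transcription factors of the pathway were present at low levels. STAT2, a subunit of the complex with IRF9, was at 3.44, 1.74 and 2.75 RPKM in vector, 2.75, 2.07 and 2.43 RPKM with OTUB2, and 2.96, 1.88 and 2.42 RPKM with SNX29P2. In each group replicate 1 was the highest and replicate 2 the lowest, and the groups overlapped. IRF9, which carries the DNA-binding part of the complex, lay at 1.23 to 1.81 RPKM. Its value is uncertain because 48.4% of its exon bases are shared with another annotated gene on the same strand. IRF7, which amplifies interferon production, lay at 0.695 to 1.28 RPKM, with overlapping groups.

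Effectors that act on RNA were mostly weak. IFIT3, of the family that binds foreign RNA, was at 2.72, 2.38 and 1.60 RPKM in vector, 2.21, 2.62 and 1.75 RPKM with OTUB2, and 2.48, 2.45 and 1.90 RPKM with SNX29P2. Replicate 3 was the lowest in each group. IFIT1 ranged from 0.158 to 0.665 RPKM and IFIT2 from 0.0904 to 0.385 RPKM, both below the limit for testing. IFIT2 shares 65 exon bases with LIPA (13.9 to 21.1 RPKM) on the opposite strand and 356 with another annotated gene on its own strand. How reads from these bases were assigned is not known, so its value is uncertain. Of the OAS family, OAS1, OAS2 and OAS3 make the short adenylates that activate RNase L. OAS3 had 95 to 170 reads per library (0.270 to 0.424 RPKM), whereas OAS1, OAS2 and OASL had 0 to 6, 0 to 6 and 0 to 12 reads.

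ISG20, an exonuclease that degrades RNA (chr15:88636153-88656483), had lower values in both construct groups than in vector. Its levels were 0.894, 1.06 and 0.825 RPKM in vector, 0.416, 0.811 and 0.714 RPKM with OTUB2, and 0.424, 0.789 and 0.498 RPKM with SNX29P2. Every library of both construct groups lay below every vector library. Both comparisons use the same 3 vector libraries. In each group replicate 2 was the highest.

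Of the effectors that block steps of a virus life cycle, SAMD9, which restricts poxviruses (chr7:93099513-93118023), was the only one tested. It was at 8.51, 3.67 and 5.86 RPKM in vector, 8.88, 6.92 and 8.20 RPKM with OTUB2, and 8.74, 5.98 and 7.94 RPKM with SNX29P2. Group means were 6.02 ± 2.42, 8.0 ± 0.996 and 7.55 ± 1.42 RPKM (SD, n = 3 each), and the wide vector range overlapped both construct groups. BST2 (tetherin), which holds budding virions at the cell surface, had 0 to 12 reads per library.

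ISG15, the ubiquitin-like protein that is conjugated to targets during an interferon response (chr1:1001138-1014541), was at 2.34, 1.52 and 1.72 RPKM in vector. With OTUB2 it was at 3.45, 2.67 and 2.23 RPKM, and with SNX29P2 at 2.59, 2.55 and 1.66 RPKM. The OTUB2 group was the highest on average, at 2.78 ± 0.619 RPKM against 1.86 ± 0.428 RPKM (SD, n = 3 each), but its lowest library lay below the highest vector library. Without OTUB2 replicate 1, which had the blood cell reads and the highest ISG15 value, the OTUB2 mean was 2.45 RPKM.

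The enzymes of ISG15 conjugation were weak. UBE2L6, its conjugating enzyme, was at 0.555, 0.638 and 0.176 RPKM in vector, 0.257, 0.262 and 0.160 RPKM with OTUB2, and 0.318, 0.274 and 0.174 RPKM with SNX29P2. HERC5, its ligase, lay at 0.0178 to 0.156 RPKM. USP18, the protease that removes ISG15 and dampens the receptor, had 45, 16 and 16 reads in vector, 23, 6 and 14 with OTUB2, and 38, 40 and 32 with SNX29P2. For USP18 every SNX29P2 library lay above every OTUB2 library, while the vector libraries overlapped both.

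HERC6, a relative of HERC5 (chr4:88378739-88443111), was at 0.712, 0.789 and 0.572 RPKM in vector, 0.822, 1.06 and 0.817 RPKM with OTUB2, and 0.493, 1.04 and 0.677 RPKM with SNX29P2. All OTUB2 libraries lay above all vector libraries, and the SNX29P2 group spanned both. TRIM21, a ubiquitin ligase that recognises antibody-coated virus, varied little, from 4.14 to 5.85 RPKM over the 9 libraries.

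Of the ADP-ribosylation genes, DTX3L and PARP9 form a complex and are transcribed from adjacent, divergent genes whose exons share 217 bases on opposite strands, so those reads cannot be assigned without strand. DTX3L lay at 4.19 to 6.28 RPKM, PARP9 at 1.03 to 1.65 RPKM and PARP14, a mono-ADP-ribosyltransferase, at 1.11 to 1.80 RPKM. For each, the groups overlapped. GBP1, a guanylate-binding GTPase, was at 0.760, 1.15 and 0.567 RPKM in vector, 0.505, 1.08 and 0.652 RPKM with OTUB2, and 0.620, 0.792 and 0.450 RPKM with SNX29P2, with replicate 2 highest in each group. GBP2 lay at 0.0385 to 0.172 RPKM.

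IFI44 (chr1:78649796-78664078) was the most abundant member per length. It was at 19.3, 10.2 and 14.2 RPKM in vector, 16.3, 15.0 and 16.5 RPKM with OTUB2, and 16.1, 16.5 and 19 RPKM with SNX29P2. The highest and lowest of all 9 values were both vector libraries. Its neighbour IFI44L had 0 to 12 reads per library, and XAF1, which binds the apoptosis inhibitor XIAP, had 0 to 8.

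IFI6, a small membrane protein with antiviral activity (chr1:27666061-27672218), was at 1.90, 1.86 and 1.45 RPKM in vector, 1.31, 1.67 and 1.62 RPKM with OTUB2, and 1.16, 1.30 and 1.25 RPKM with SNX29P2. All SNX29P2 libraries lay below all vector and all OTUB2 libraries. These values rest on 45 to 70 reads per library. IFI27, of the same family, lay at 0.0999 to 0.426 RPKM.

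With OTUB2 overexpression, no tested interferon-stimulated gene passed the test against vector. By limma with Benjamini-Hochberg adjustment over 16533 genes, 0 of the 16 tested members were called at an adjusted p under 0.05, where 0.0181% of all tested genes were called. At an unadjusted p under 0.05 there was 1 member, ISG15, against 6.73% of all tested genes. Libraries did not overlap for 2 members, HERC6 (higher) and ISG20 (lower), where 10.8% of all tested genes did not overlap. 8 members were higher and 8 lower (52.0% of all tested genes were higher), with a median log2 fold change of 0.01, the same as over all genes. Without OTUB2 replicate 1, 0 members were called, 3 did not overlap and the median was 0.06. Once vector replicate 1 was left out, 7 members did not overlap, and leaving out replicate 3 of that group instead gave 4. The share of all tested genes that did not overlap was not computed for any set lacking a library, including the set lacking OTUB2 replicate 1. These counts therefore cannot be set against other genes.

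ISG15 had the smallest p in this comparison. Its log2 fold change was 0.56 (SE 0.224, 95% interval 0.06 to 1.06, limma adjusted p = 0.707), and without OTUB2 replicate 1 it was 0.40. SAMD9 followed at 0.48 (SE 0.263, limma adjusted p = 0.794), a value that was 0.17 without vector replicate 2, 0.76 without vector replicate 1 and 0.40 without OTUB2 replicate 1. ISG20 was at -0.49 (SE 0.285, limma adjusted p = 0.814) and at -0.25 without OTUB2 replicate 1. HERC6 was at 0.34 (SE 0.261, limma adjusted p = 0.867) and at 0.39 without that library. The part of the blood cell reads in these values was not tested.

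The width of the 95% intervals shows how large a difference remains possible. Of the 16 members, 13 had a 95% interval inside a 2-fold change in either direction, as did 89.8% of all tested genes. The highest upper bound belonged to SAMD9, at 1.07 on the log2 scale (2.09-fold).

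With SNX29P2 overexpression, again 0 of the 16 tested members were called by limma, where 0.0363% of all tested genes were. At an unadjusted p under 0.05 there were 2 members, IFI6 and ISG20, both lower with SNX29P2, against 8.21% of all tested genes. The same 2 members had libraries that did not overlap, against 11.7% of all tested genes. That count was 4 without vector replicate 1 or 3 and 3 without SNX29P2 replicate 3. Shares of all tested genes were not computed for these smaller sets of libraries. 8 members were higher and 8 lower (53.6% of all tested genes were higher), and their median log2 fold change was -0.01, beside 0.01 over all genes.

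IFI6 had a log2 fold change of -0.45 (SE 0.150, 95% interval -0.79 to -0.11, limma adjusted p = 0.532). Leaving out any single library kept it between -0.57 and -0.39. ISG20 was at -0.65 (SE 0.285, 95% interval -1.29 to -0.01, limma adjusted p = 0.606). IFI44 was at 0.28 (SE 0.188, limma adjusted p = 0.739) and SAMD9 at 0.39 (SE 0.263, limma adjusted p = 0.745). Without vector replicate 2, the lowest library for both, IFI44 was at 0.05 and SAMD9 at 0.08, and without vector replicate 1 they were at 0.51 and 0.67. In this comparison 14 of the 16 members had an interval inside a 2-fold change, as did 90.1% of all tested genes, and the highest upper bound was 0.98 (1.97-fold).

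**Figure D2:**
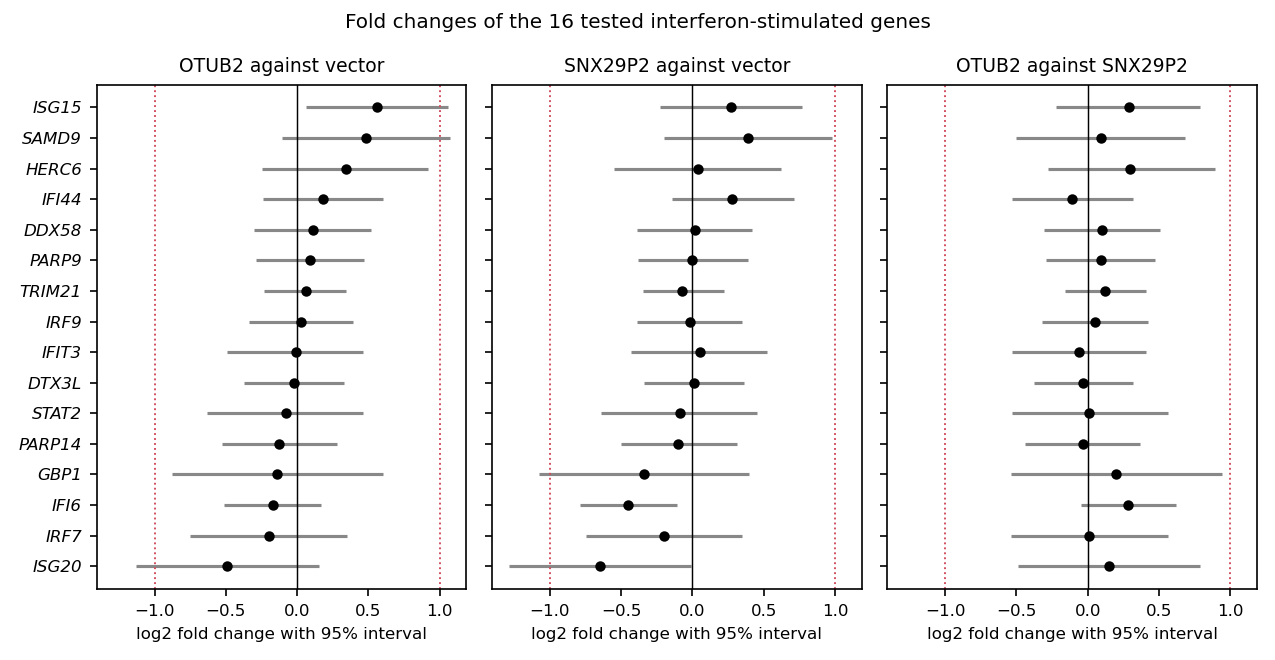
Log2 fold change, on the log2(RPKM + 0.1) scale, of the 16 tested interferon-stimulated genes in the 3 comparisons; points are limma estimates and bars their 95% intervals. Most intervals cross 0, those that do not are ISG15 with OTUB2 and IFI6 and ISG20 with SNX29P2, and no test passed adjustment over all genes.

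Set against each other, the OTUB2 and SNX29P2 groups gave no tested member that passed. limma called 0 of 16, where 0.0242% of all tested genes were called, and 0 members were under an unadjusted p of 0.05, against 2.43% of all tested genes. Libraries did not overlap for 1 member, IFI6, higher with OTUB2, against 8.35% of all tested genes. That count was 3 without OTUB2 replicate 3 and 2 without OTUB2 replicate 2 or SNX29P2 replicate 1 or 2. For these settings, too, the shares of all tested genes were not computed. 12 members were higher with OTUB2 and 4 lower (48.6% of all tested genes were higher), with a median log2 difference of 0.09, where the median of all genes was -0.00. The 4 members with the smallest p were IFI6 (0.28, SE 0.150), ISG15 (0.29, SE 0.224), HERC6 (0.30, SE 0.261) and TRIM21 (0.12, SE 0.126), each with a limma adjusted p of 1.0. For ISG15 the difference was 0.13 without OTUB2 replicate 1 and 0.09 without SNX29P2 replicate 3, and for HERC6 it was 0.08 without SNX29P2 replicate 1 and 0.55 without SNX29P2 replicate 2. For TRIM21 it was 0.23 and 0.01 without these same libraries. Without OTUB2 replicate 1, IFI6 was at 0.38 and the median at 0.06, with 0 members called. All 16 intervals lay inside a 2-fold change, as did 90.9% for all tested genes.

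Another test of the same libraries, limma voom on whole reads recovered from the RPKM values, also called 0 members in each comparison. By voom, an unadjusted p under 0.05 was found for 2 members with OTUB2 and 1 with SNX29P2 against vector, and for 0 between the constructs, where the shares of all tested genes were 6.6%, 8.14% and 2.09%.

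The genes too weak for the test are described by their reads. MX1, a dynamin-like GTPase that traps viral nucleocapsids (chr21:41420304-41459214), had 4, 2 and 4 reads in vector, 11, 18 and 12 with OTUB2, and 6, 9 and 20 with SNX29P2. Every construct library lay above every vector library. The summed reads of 10, 41 and 35 gave ratios to vector, scaled for depth, of 3.84 (95% interval 1.89 to 8.59) and 3.22 (1.56 to 7.30). Without OTUB2 replicate 1 the first was 4.15 (1.98 to 9.53). These intervals treat reads as independent and cover counting error at most, and the levels stayed at 0.00603 to 0.0492 RPKM. When all genes were fitted without a limit on level, limma gave MX1 log2 fold changes of 0.31 (adjusted p = 0.855) and 0.24 (adjusted p = 0.849), values held down by the added 0.1 RPKM.

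MX2, a relative of MX1 that restricts retroviruses, had 24 reads in OTUB2 replicate 1 and 0 in each of the other 8 libraries. A count of 0 allows up to 3 reads, or 0.00474 to 0.00597 RPKM in those libraries. The library with MX2 reads is the one with the blood cell reads, and it also had the highest values of BST2 (12 reads), OAS1 (6), IFI44L (12) and IFIT2 (67). With MX2 these are 5 of the 17 untested members, where it was the highest for 16.9% of all untested genes. Of the 16 tested members it was the highest for 3, IRF7, SAMD9 and ISG15, where the share of all tested genes was 10.9%. The part of those cells' RNA in these counts was not tested. MX1 was lower in that library, at 11 reads, than in the other OTUB2 libraries.

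**Figure D3:**
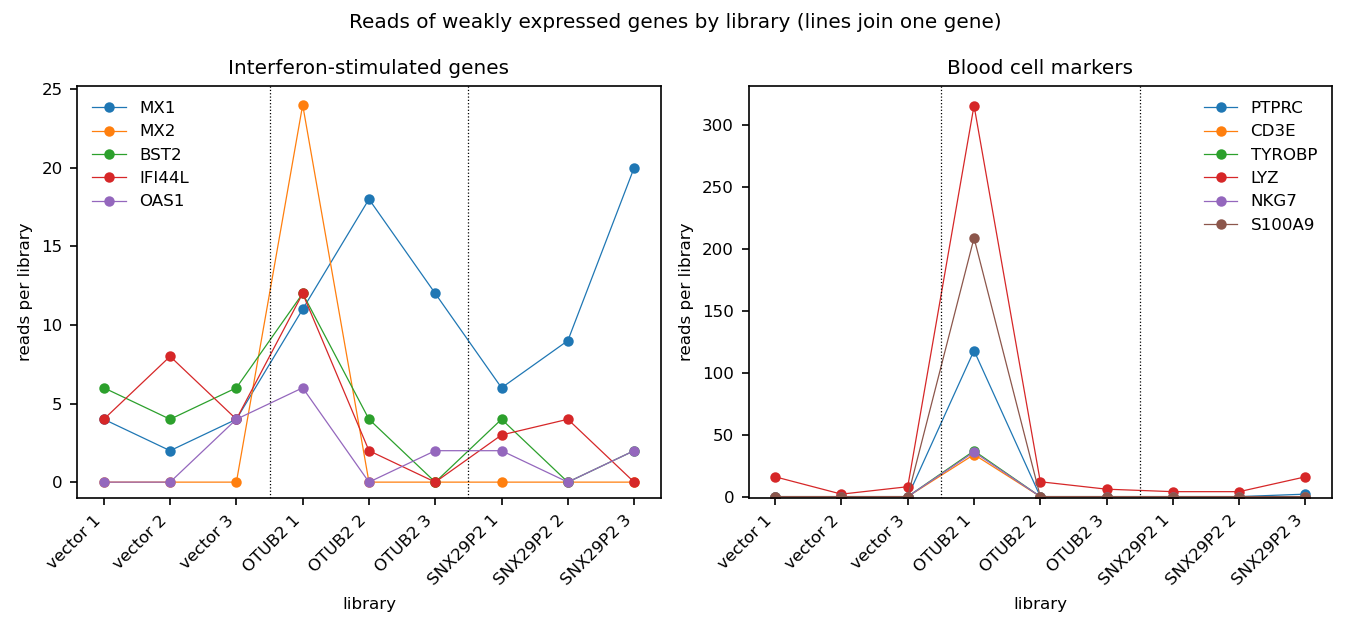
Reads per library of 5 weakly expressed interferon-stimulated genes (left) and of 6 blood cell markers (right), with 1 line per gene and dotted lines between the groups. The blood cell markers reach 34 to 316 reads in OTUB2 replicate 1, the library that holds the 24 reads of MX2, while MX1 is above its vector counts of 2 to 4 in all 6 construct libraries.

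For the 16 untested members with reads in every group, counting intervals of the ratio to vector were compared with 1. They lay above 1 for 3 with OTUB2 and for 2 with SNX29P2, and below 1 for 3 with each. The share over all untested genes was not computed, so these counts cannot be set against other weak genes. Bounds close to 1, as for OAS3, HERC5 and BST2, depend on reads being independent. Beside MX1, those above 1 were OAS3 (1.17, 1.01 to 1.37) and HERC5 (1.49, 1.01 to 2.22) with OTUB2, and IFIT2 (1.58, 1.20 to 2.08) with SNX29P2. Those below 1 were UBE2L6 and IFI27 with either construct, USP18 with OTUB2 (0.523, 0.351 to 0.769) and BST2 with SNX29P2 (0.346, 0.111 to 0.930). Without OTUB2 replicate 1 the OTUB2 ratios were 1.27 (1.07 to 1.5) for OAS3 and 1.51 (0.982 to 2.33) for HERC5. They were 0.360 (0.208 to 0.594) for USP18, 0.477 (0.327 to 0.682) for UBE2L6 and 0.692 (0.519 to 0.918) for IFI27. Leaving out that library also put the interval below 1 for IFIT1 (0.672, 0.523 to 0.858), OASL (0.198, 0.0218 to 0.861) and IFI44L (0.173, 0.0193 to 0.736). OASL and IFI44L then had 2 OTUB2 reads each. UBE2L6 had 122 reads in vector, 66 with OTUB2 and 74 with SNX29P2, with depth-scaled ratios to vector of 0.506 (0.369 to 0.689) and 0.559 (0.413 to 0.752). Vector replicate 3, at 16 reads, lay within the construct groups. IFI27 had ratios of 0.610 (0.468 to 0.790) and 0.624 (0.481 to 0.807), and its 3 OTUB2 libraries lay below its 3 vector libraries. USP18 had 43 reads with OTUB2 and 110 with SNX29P2, a ratio of 0.397 (0.272 to 0.570; 0.273, 0.161 to 0.443, without OTUB2 replicate 1), and a log2 difference of -0.99 in the fit without a limit on level (limma adjusted p = 1.0). Over all 33 members without that limit, libraries did not overlap for 4 members with OTUB2 against vector (8.13% of all genes), 4 with SNX29P2 against vector (8.38%) and 2 between the constructs (6.71%), and limma called 0 members in each, where 0.0212%, 0.0242% and 0.0182% of all genes were called.

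At the median, the tested members varied more between libraries of a group than all tested genes. The members were also more weakly expressed, at a median vector level of 1.8 RPKM against 5.0 RPKM. Genes of matched level were not compared. Their median SD within groups on the log2 scale was 0.287, from 0.162 for IFI6 to 0.436 for GBP1, against 0.155 for all tested genes. The median SE of a fold change was 0.200 for the members and 0.126 for all. Vector replicate 1 was the highest of the 9 libraries for 8 of the 16 members, where it was the highest for 18.8% of all tested genes. Vector replicates 2 and 3 were the lowest for 5 and 4 members, where the shares of all tested genes were 18.7% and 14.0%. Of each 1000000 reads in genes, the 33 members took 279, 199 and 203 in vector, 244, 239 and 240 for OTUB2, and 243, 222 and 240 for SNX29P2, so both construct groups lay inside the vector range. The median log2 fold change of the 16 members against vector went from -0.07 without vector replicate 3 to 0.14 without vector replicate 1 for OTUB2, and from -0.14 to 0.09 for SNX29P2 with the same libraries left out.

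**Figure D4:**
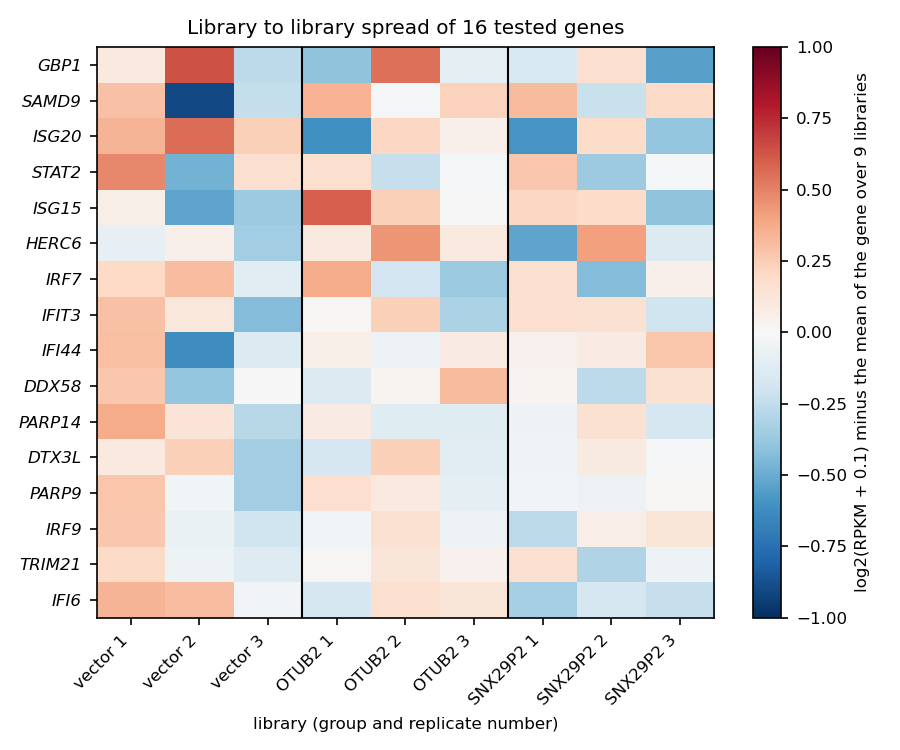
Heat map of the 16 tested interferon-stimulated genes (rows) in the 9 libraries (columns), coloured by log2(RPKM + 0.1) minus the gene's mean over the 9 libraries. Vector replicate 1 lies above the mean (median 0.28) and vector replicate 3 below it (median -0.22), while the medians of the 6 construct libraries lie between -0.03 and 0.14.

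Some members followed the replicate number across groups. Replicate 2 was the highest in every group for 4 of the 16, ISG20, HERC6, DTX3L and GBP1, as it was for 14.2% of all tested genes. Replicate 2 was the lowest in every group for 2, STAT2 and SAMD9, against 10.4% of all tested genes. Replicate 1 was the highest in every group for 3, STAT2, SAMD9 and ISG15, against 8.93%. The labels do not say what the numbers stand for.

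The receptor and its kinases were expressed in every library, while the matched interferon genes were weak. Genes beside the members came from 9 lists with 126 entries, of which 102 were matched and 63 were tested. limma called 0 of the 63 in each comparison, and an unadjusted p under 0.05 was found for 4 with OTUB2 and 5 with SNX29P2 against vector, and for 0 between the constructs, beside 6.73%, 8.21% and 2.43% of all tested genes. Of the interferon genes, 3 of 21 were matched and the others were not analysed here. IFNE, an interferon of the reproductive tract, lay at 0.131 to 0.849 RPKM with overlapping groups, and IFNA1 and IFNA13 lay at 0 to 0.0651 RPKM. JAK1 was at 33.3 to 36.8 RPKM, so this receptor kinase was more abundant per length than any of the 33 members. MB21D1 (cGAS), which senses DNA in the cytosol, was at 0 to 0.0210 RPKM, and its adaptor TMEM173 (STING) was at 1.08 to 1.80 RPKM. Other sensors of DNA were present, IFI16 at 36.4 to 50.7 RPKM and AIM2 at 1.42 to 4.09 RPKM. TMEM173 was higher with OTUB2 than with SNX29P2 in all libraries, with a log2 difference of 0.37 (SE 0.176, limma adjusted p = 1.0).

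In the induction pathway and among the signal transcription factors, the lists also had 0 calls. For OTUB2 against vector the genes with the smallest p were STAT3 (0.22, limma adjusted p = 0.709) and IRF1 (-0.17, limma adjusted p = 0.908), the kinase TBK1 (0.11, adjusted p = 0.881) and the adaptor MAVS (-0.09, adjusted p = 0.870). For SNX29P2 against vector they included IRF1 (-0.45, limma adjusted p = 0.568), TBK1 (0.20, adjusted p = 0.619) and the adaptor TICAM1 (-0.16, adjusted p = 0.624). Of the negative regulators, the phosphatase PTPN2 was at 0.10 with OTUB2 and 0.18 with SNX29P2 against vector, and SOCS1 was at 0.28 with OTUB2. Leaving out a library moved several of these OTUB2 values by over 1.5 times: IRF1 lay between -0.30 and -0.03, TBK1 between 0.03 and 0.16, MAVS between -0.13 and -0.04, PTPN2 between 0.03 and 0.15, and SOCS1 between -0.01 and 0.56. The lowest sizes came without vector replicate 2 for IRF1 and TBK1, without OTUB2 replicate 1 for MAVS, and without vector replicate 1 for PTPN2 and SOCS1. For SNX29P2, TBK1 lay between 0.12 and 0.24, lowest without vector replicate 2, and PTPN2 between 0.10 and 0.24, lowest without SNX29P2 replicate 2.

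A further list of 43 interferon-stimulated genes outside the members had 42 matched and 27 tested. limma called 0 of them in each comparison, and their median log2 fold changes were 0.02 with OTUB2 and -0.01 with SNX29P2 against vector, and 0.01 between the constructs. IFITM3, which blocks entry of viruses through endosomes, had the smallest p of any listed gene against vector. It was at 20.0, 19.7 and 17.3 RPKM in vector, 13.9, 14.0 and 16.2 RPKM with OTUB2, and 13.8, 14.4 and 13.1 RPKM with SNX29P2. All construct libraries lay below all vector libraries, with log2 fold changes of -0.37 (SE 0.0858, limma adjusted p = 0.481; -0.33 without OTUB2 replicate 1) and -0.46 (SE 0.0858, limma adjusted p = 0.366).

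LGALS3BP, a secreted glycoprotein that binds galectins, had the same order of groups. It was at 47.8, 47.7 and 40.0 RPKM in vector, 37.0, 39.7 and 37.5 RPKM with OTUB2, and 33.4, 35.9 and 32.8 RPKM with SNX29P2, with log2 fold changes of -0.24 (limma adjusted p = 0.675; -0.22 without OTUB2 replicate 1) and -0.40 (limma adjusted p = 0.447). Both comparisons share the vector libraries, and reads of IFITM3 may be split with its close copies IFITM1 and IFITM2.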

How the data were processed

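The authors deposited 1 table of RPKM values with gene lengths and exon positions, per the file headers, with positions on GRCh38, as the submitters' processing notes name it. Which aligner, counter, strand setting and annotation were used was not given in the sources used here. Each library was assigned by its labelled genotype. The members and lists were chosen with earlier results of these data known.

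RPKM times length gave whole reads: 100% of values under 1000 reads were whole within 0.05 reads, and 58.1 to 60.4% were even. Read intervals are exact 95% intervals that treat reads as independent and cover counting error at most. Reads of UBE2L6, BST2, OAS1, OAS2 and OASL were even in every library. If both reads of a pair were counted, these intervals are too narrow even for counting error. Whether this was so was not tested. 25 names had been turned into dates and were left out of name matching.

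Genes reaching 0.5 RPKM in 3 or more libraries were fitted as log2(RPKM + 0.1) in 1 limma model (limma 3.58.1, R 4.3.3; trended variance, group as the only term) over 9 libraries, tested on simulated data; calls needed a Benjamini-Hochberg adjusted p below 0.05. Fold changes on this scale understate those of low genes. Level was given for every member, fold changes for called members and the 4 with the smallest p per comparison, and up to 2 genes per other list. Some genes of those lists are not reported here. Same-numbered OTUB2 and SNX29P2 libraries deviated together (correlations 0.270, 0.259 and 0.153 for numbers 1, 2 and 3), a pairing seen in the data and not stated in the labels. Alternatives varied the pseudocount, filter, scaling, groups, replicate block and libraries. limma voom was added after the data were seen. Promoter windows came from RefSeq. Python 3.11.15 was used with matplotlib 3.10.9, numpy 2.4.6 and pandas 2.3.3.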

Additional observations from a re-analysis of the deposited data

How the results depend on the processing

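Under every alternative run, 0 interferon-stimulated genes were called in each comparison. Counts of all genes called were 3 for OTUB2 against vector, 6 for SNX29P2 against vector and 4 for OTUB2 against SNX29P2. For OTUB2 against vector the count was 7 without a filter, 1 when only the compared groups were fitted and 1 to 7 when each library was left out. The 7 came without vector replicate 3, and 1 was left when vector replicate 1 or an OTUB2 library was dropped. For SNX29P2 against vector it was 1 with a filter of 1 RPKM in 6 libraries, 10 by voom and 1 to 7 with each library left out. For OTUB2 against SNX29P2 it was 1 with the stricter filter and 1 to 5 with each library left out. In both comparisons with SNX29P2, 1 call was left when any of its libraries was dropped. Intervals inside a 2-fold change numbered 25, 25 and 28 of 33 members without a filter. For members close to 0 RPKM the added 0.1 RPKM holds the fold change near 0, so these counts do not bound their change. MX1 with OTUB2 had an interval of 0.02 to 0.60 in that fit, beside a read ratio to vector of 3.84 (1.89 to 8.59). The share of all genes was not computed.

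With the replicate block, genes called were 4, 9 and 4 and members called 0, with ISG15 at an adjusted p of 0.247 for OTUB2 and IFI6 at 0.278 for SNX29P2. Same-numbered vector and OTUB2 libraries had correlations of 0.051, 0.193 and 0.139, and vector and SNX29P2 libraries -0.018, 0.151 and 0.104. Libraries of unlike number lay at -0.143 to 0.007 and at -0.153 to 0.05. The labels state no pairing, so the main model left the numbers out.

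Directions turned in genes outside the members when a library was left out, none of them called. For OTUB2 against vector, SOCS1 ranged from -0.01 to 0.56, KRT8 from -0.00 to 0.17, KRT18 from -0.02 to 0.19 and SNX29P2 from -0.34 to 0.02. For SNX29P2 against vector, KRT8 ranged from -0.15 to 0.03, KRT18 from -0.16 to 0.06, OTUB2 from -0.12 to 0.15 and CD68 from -0.10 to 0.00. For OTUB2 against SNX29P2, IFNE ranged from -0.58 to 0.18, and was at 0.18 without OTUB2 replicate 1. The cause was not tested. Across alternatives, ISG15 stayed at 0.40 to 0.73 with OTUB2 and IFI6 at -0.57 to -0.29 with SNX29P2. The planned count-model test was not run, and voom on recovered reads took its place. With the filter of 1 RPKM in 6 libraries, 0 members did not overlap for OTUB2 and 1 for SNX29P2 against vector. The shares of all genes under that filter were not computed. Depth limits members with few reads, such as OAS1, whose ratio to vector with OTUB2 was 1.87 (0.501 to 8.49).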
